A study of Mus musculus with 4 samples.

Results

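Irgm1, Irgm2, Igtp, Iigp1, Gbp2 and Gbp3 are mouse GTPases whose genes are switched on by interferon. The members are these 6 of the 16593 genes named on the array, and they were measured by 12 of its 25697 probes. They were selected on values from these same arrays, after interferon-stimulated genes had been seen to differ between the KO and WT cells, so their KO to WT difference is a description, and the counts given from the fit over all probes are no independent test of it. RNA came from mouse embryonic fibroblasts (MEFs), connective tissue cells grown from E12.5 embryos of the C57BL6J strain after the head and viscera had been taken off. The 2 KO lines were H3f3b -/-, lacking one of the genes for the histone variant H3.3, through a deletion made in the germline by crossing a floxed allele to Zp3Cre, a Cre driven by an oocyte promoter. The 2 WT lines were H3f3b WT/WT littermates from heterozygous matings. All 4 lines carried a stably integrated pBabe puro retroviral vector, and the labels name no interferon treatment. Each line was hybridised once to an Illumina MouseRef-8 array, giving KO1, KO2, WT1 and WT2, so n = 2 per genotype.

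Interferons act through surface receptors and Janus kinases on STAT transcription factors. Interferon gamma acts mainly through a GAS element in the promoters of its targets, and type I interferon through an ISRE, which is bound by a complex that holds STAT2 and IRF9. The immunity-related GTPases (IRGs) and guanylate-binding proteins (GBPs) are among the proteins most strongly induced by interferon gamma in mouse cells. They assemble on the vacuoles of intracellular parasites and bacteria and help to break them open. Irgm1, Irgm2 and Igtp (also called Irgm3) are regulatory IRGs, which sit on the membranes of the cell and hold the effector IRGs inactive there. Iigp1 (Irga6) is an effector IRG, and Gbp2 and Gbp3 are GBPs.

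The promoters of 5 of the 6 genes were read from RefSeq (GRCm38.p6) as windows of 300 bases, 250 before each start site and 50 from it on. They are shown because interferon-activated factors are known to bind such motifs in promoters. The ISRE core GAAANNGAAA was searched on both strands and was in 3.44% of all 32851 windows. The GAS core TTCNNNGAA, which reads the same on both strands, was in 8.30% of them, and both motifs were in 0.454%. The core of the ISRE was in the windows of all 5 genes (for Gbp3, in 1 of its 2 windows), and that of GAS was in those of Irgm2 and Igtp. Capitals mark the matches and the lines run 5′ to 3′ on the strand of the gene.
Irgm1, chr11:48871421-48871475, minus strand: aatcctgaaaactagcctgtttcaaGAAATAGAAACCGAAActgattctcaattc
Irgm2, chr11:58214877-58214947, plus strand: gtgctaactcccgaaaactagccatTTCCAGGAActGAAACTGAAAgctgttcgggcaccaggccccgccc
Igtp, chr11:58199486-58199555, plus strand: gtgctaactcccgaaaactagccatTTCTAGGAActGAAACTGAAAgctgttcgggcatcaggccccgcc
Gbp2, chr3:142620579-142620638, plus strand: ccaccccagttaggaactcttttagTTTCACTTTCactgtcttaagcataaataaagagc
Gbp3, chr3:142559974-142560039, plus strand: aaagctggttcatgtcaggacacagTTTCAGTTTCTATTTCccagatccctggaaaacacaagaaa
In Irgm1 the capitals are 2 ISRE matches that overlap, and the same holds for Gbp3, where they read on the reverse strand, as does the single match of Gbp2. In Irgm2 and Igtp the GAS match comes first and the ISRE match follows 2 bases later. The windows were aligned end to end in pairs with gaps allowed, and identical bases were counted against the window length. They came to 82.3% for Igtp and Irgm2, and to 56.3% to 62.7% for every other pair of members. The share that unrelated windows reach was not computed. Igtp and Irgm2 are direct neighbours in the RefSeq order of protein-coding genes on chromosome 11, where Irgm1 lies elsewhere. On chromosome 3 the order is Gbp5, Gbp7, Gbp3, Gbp2b and Gbp2. A match is a description of the letters and no measurement of binding.

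Before the members, the arrays were compared as a whole. Mean signal was 381 and 382 in the KO arrays and 291 and 294 in the WT arrays, and the median signal of undetected probes was 97.1 and 94.6 in KO, against 80.9 and 84.4 in WT. A probe is called detected where its detection p-value, which sets its signal against negative control beads, was under 0.05, and 11202 to 11543 probes were detected per array. H3f3b had signals of 97.3 and 98.7 in the KO arrays and 1735.7 and 1686.2 in the WT arrays, as labelled. All 11 fibroblast markers on the array were detected, among them Vim, Thy1 and Col1a1. Since KO arrays were brighter throughout, levels below are also given as normalized log2 values, from a background correction with an offset of 16 and quantile normalization. Tests were run over the 11552 probes detected on at least 2 of the 4 arrays. In bulk RNA such as this, fewer cells expressing a gene and less RNA per cell cannot be told apart.

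Of the 12 member probes, 7 were detected on all 4 arrays, 2 were detected on none, and 9 were tested. The normalized KO minus WT difference was below 0 for all 9, and WT2 was the highest array for all 9, as it was for 29.3% of all tested probes. Both KO arrays lay below both WT arrays for 5 of the 9, from Irgm2, Igtp, Gbp2 and Gbp3, a separation found for 17.1% of all tested probes. Among the 5, Gbp2 probe ILMN_3047389 was detected in neither KO array. It was tested only because both WT arrays detected it, which favours this order. By limma's moderated test with Benjamini-Hochberg adjustment over all probes, 0 of the 9 passed an adjusted p of 0.05, as did 0.00866% of all tested probes, which is H3f3b alone. At an unadjusted p of 0.05, 5 of the 9 were lower in KO, beside 3.51% of all tested probes. These counts come from the contrast that chose the genes and carry no evidence of their own.

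**Figure D1:**
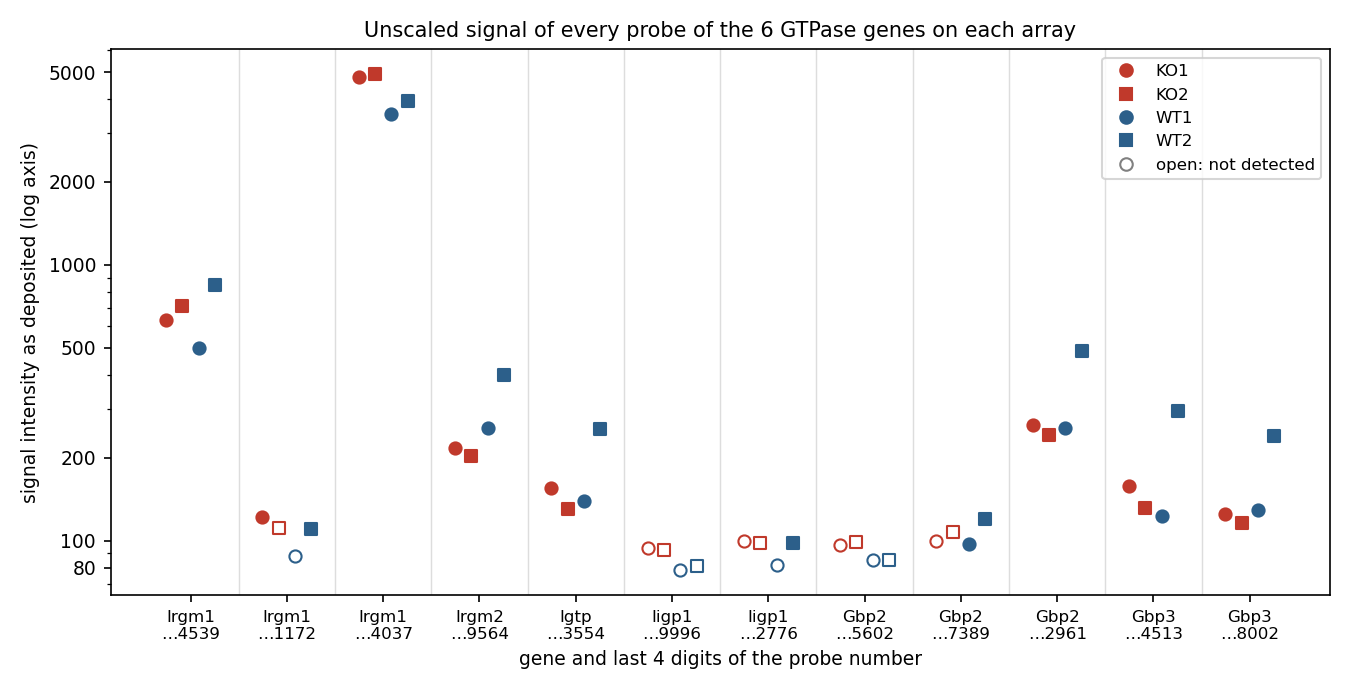
Deposited signal, as scanned and unscaled (log axis), of the 12 member probes on each array, KO in red and WT in blue, with filled markers where the probe was detected. WT2 lies above WT1 for every one of the 12 probes, from 84.9 and 85.0 for a Gbp2 probe near background to 3517.5 and 3918.0 for Irgm1 probe ILMN_2804037 (WT1 before WT2). The median signal of undetected probes was also higher in WT2 (84.4) than in WT1 (80.9). After normalization WT2 was below WT1 for the undetected probes ILMN_2605602 (Gbp2, by -0.09) and ILMN_1229996 (Iigp1, by -0.008).

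The regulatory IRGs come first, and among them Irgm1, which is needed for normal lysosomal function, had 3 probes. One of them, ILMN_2804037, had signals in KO of 4780.5 and 4917.4, against 3517.5 and 3918.0 in WT. After normalization it stood at 11.98 and 12.02 in KO and at 11.99 and 12.18 in WT, a difference of -0.08 ± 0.17 (SE). The groups overlapped, and the values were level apart from the slightly higher WT2. A second probe, ILMN_1234539, had signals in KO of 630.2 and 707.3, against 499.9 and 843.8 in WT, and log2 values in KO of 8.88 and 9.06, against 9.002 and 9.85 in WT. Its difference was -0.45 ± 0.29 (SE), with KO2 above WT1, and -0.03 without WT2 or -0.88 without WT1. The remaining Irgm1 probe, ILMN_2711172, was at the edge of detection, with 122.4 and 111.3 in KO, against 88.2 and 110.4 in WT, detected in KO1 and WT2 only, and a normalized difference of -0.06 ± 0.31 (SE). The 3 Irgm1 probes therefore gave no separation of the genotypes.

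Irgm2, a second regulator that keeps effector IRGs off host membranes, had 1 probe, ILMN_1259564, with signals in KO of 217.0 and 202.9, against 257.2 and 397.5 in WT. Both KO arrays lay below both WT arrays even before scaling. The normalized values were 6.85 and 6.70 in KO, against 7.81 and 8.61 in WT, averaging 6.78 ± 0.11 in KO and 8.21 ± 0.57 in WT (SD, n = 2 each). The difference was -1.43 ± 0.28 (SE), or 2.70-fold lower in KO. It was -1.83 without WT1 and -1.03 without WT2.

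Igtp, the regulator encoded next to Irgm2, had 1 probe, ILMN_2593554, at 155.4 and 130.5 in KO, against 139.9 and 253.9 in WT. On this unscaled signal the groups overlapped, because KO1 was above WT1. After normalization KO was at 5.95 and 5.40 and WT at 6.36 and 7.75, with means of 5.68 ± 0.39 in KO and 7.05 ± 0.98 in WT (SD, n = 2 each). The KO arrays then lay below both WT arrays, by 2.59-fold on average and -1.37 ± 0.44 (SE) in log2. WT2 exceeded WT1 by 1.39, slightly more than the difference between genotypes, which was -2.07 without WT1 and -0.68 without WT2. With no background correction the difference between genotypes came to -0.74.

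Iigp1, the effector IRG, was at background in every KO array. Its probe ILMN_2612776 had signals in KO of 99.8 and 98.3, against 81.4 and 98.4 in WT and was detected in WT2 alone, at a detection p-value of 0.0489, close to the limit. Its other probe, ILMN_1229996, had 94.0 and 92.3 in KO, against 78.3 and 81.3 in WT and was detected on no array. Neither probe was tested, and no fold is given for Iigp1.

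Among the GBPs, Gbp2, which is recruited to pathogen vacuoles and acts there with the IRGs, had 3 probes. One, ILMN_3122961, had signals in KO of 263.7 and 241.2, against 255.9 and 489.0 in WT, overlapping before scaling. Its normalized values were 7.28 and 7.10 in KO, against 7.79 and 8.96 in WT, with means of 7.19 ± 0.13 in KO and 8.38 ± 0.83 in WT (SD, n = 2 each). Gbp2 on this probe was 2.27-fold lower in KO, a difference of -1.18 ± 0.36 (SE), and the KO arrays were below both WT arrays. Without WT1 the difference was -1.77 and without WT2 it was -0.60. ILMN_3047389 had 99.8 and 107.2 in KO, against 97.5 and 119.9 in WT, and was detected in both WT arrays and in neither KO array. The unscaled signals overlapped. For that probe the KO level is only a bound, which put Gbp2 at least 1.5-fold lower in KO. That figure holds for the main normalization with both WT arrays only, and other settings gave smaller differences. Its normalized values stood at 4.36 and 4.62 in KO and at 4.97 and 5.78 in WT, a difference of -0.89 ± 0.28 (SE), which was -1.29 without WT1, -0.48 without WT2 and -0.32 with no background correction. The bound sets the mean of the WT values against the lowest normalized value among detected probes of each KO array, or the probe's own value where that was higher. The third probe, ILMN_2605602, was at 96.9 and 98.9 in KO, against 84.9 and 85.0 in WT, detected on none.

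Gbp3, a GBP encoded near Gbp2, had 2 probes that differed in separation. ILMN_2918002 had signals in KO of 125.4 and 115.7, against 129.0 and 239.5 in WT, with KO below WT before scaling as well. It stood at 5.19 and 4.91 in KO and at 6.11 and 7.61 in WT after normalization, a difference of -1.81 ± 0.45 (SE), or 3.50-fold lower in KO, the largest of any member probe. Without WT1 it was -2.56, without WT2 it was -1.05, and with no background correction it came to -0.85. ILMN_1244513 had signals in KO of 158.0 and 131.9, against 123.1 and 295.0 in WT, and normalized values in KO of 6.01 and 5.44, against 5.93 and 8.04 in WT. Here KO1 was above WT1 and the groups overlapped. The difference of -1.26 ± 0.61 (SE) rested on WT2, since without WT2 it was -0.21 and without WT1 it was -2.31.

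**Figure D2:**
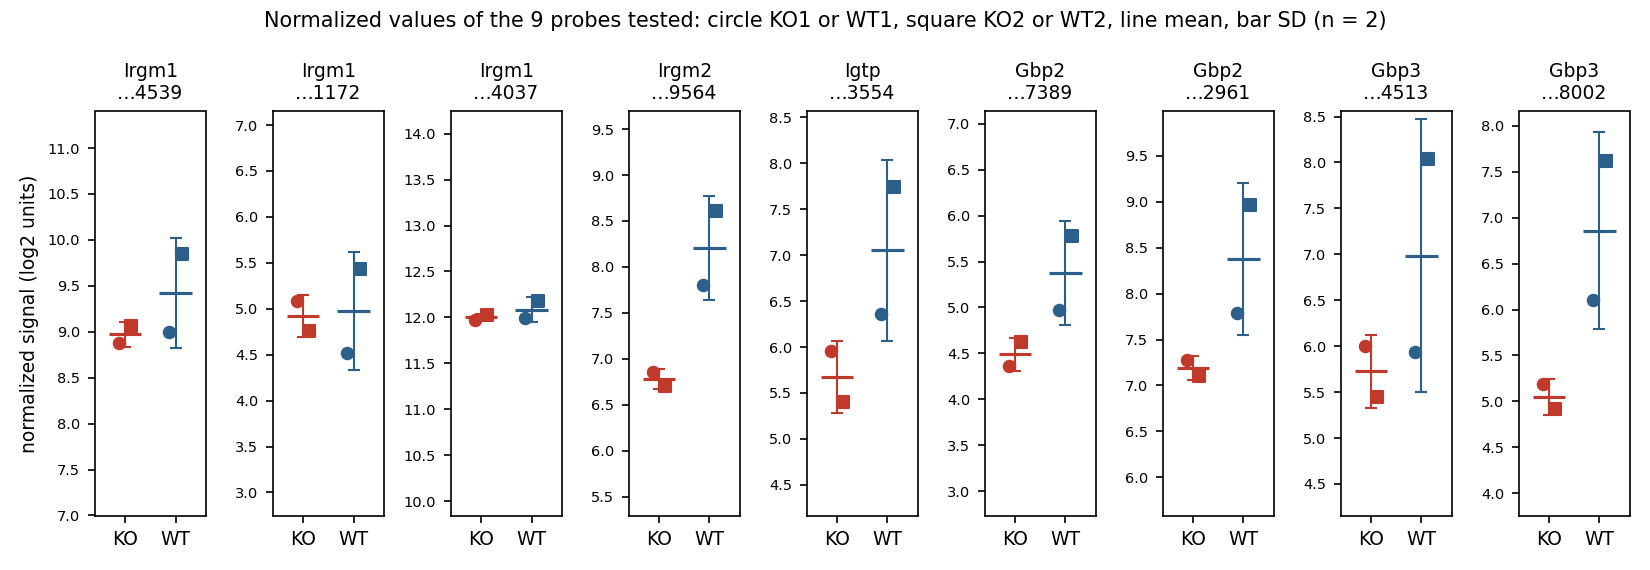
Normalized log2 value of the 9 tested member probes on the 4 arrays, KO (red) left of WT (blue) for each probe, with a line at the mean and a bar of 1 SD either way (n = 2). WT2 is the top point for all 9 probes, and the KO points fall below both WT points for 5 of them.

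The spread within WT was as large a part of these data as the difference between genotypes. The median absolute difference over the 9 probes was 0.26 between KO2 and KO1 and 0.91 between WT2 and WT1, where the medians over all tested probes were 0.17 for the KO pair and 0.24 for the WT pair. WT2 and WT1 were at least 1 log2 unit apart for 4 of the 9 probes, and for 229 of all tested probes (1.98%). For 5 of the 9 the gap between WT2 and WT1 was wider than that between KO and WT means. Averaged over the 5 tested genes, each through the probe whose level was highest on average, the levels relative to the mean of the 4 arrays were -0.39 and -0.67 in KO, against -0.03 and 1.10 in WT. WT1 therefore lay nearer to both KO arrays than to WT2. The mean difference over the 5 genes was -1.07, and was -1.63 without WT1 and -0.50 without WT2. With WT1 left out, 5 of the 9 probes passed an adjusted p of 0.05 by limma, a fit in which the lone WT array is assumed to vary like the KO arrays, and with WT2 left out 0 did.

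**Figure D3:**
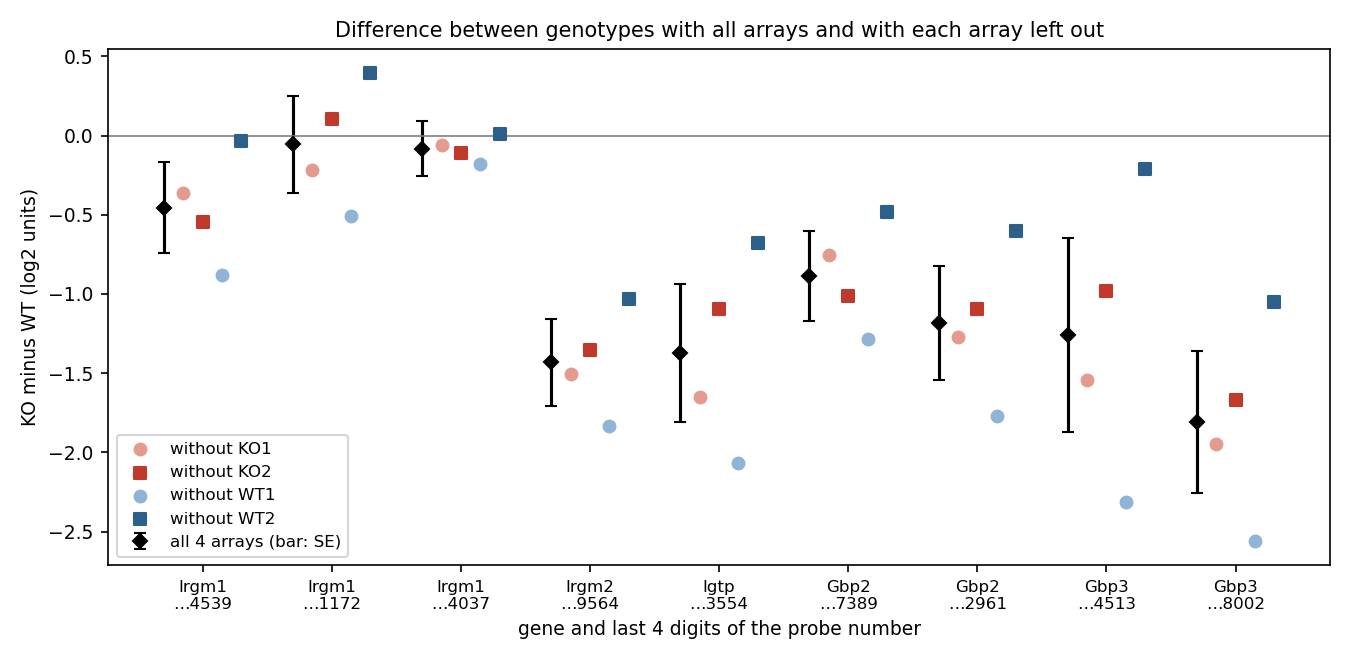
KO minus WT difference (log2) of the 9 tested member probes with all 4 arrays and with each array left out. Without WT2 the points move toward 0 (Gbp3 probe ILMN_1244513 at -0.21), and without WT1 away from it (-2.31).

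Fewer member probes separated the genotypes in the unscaled signal than after the main normalization, as was so for all tested probes. After the main normalization 5 of the 9 member probes had both KO arrays below both WT arrays, beside 17.1% of all tested probes. Under the other scalings this order was counted by gene only. Both KO arrays lay below both WT arrays for 3 of the 5 genes in the main normalization, beside 17.1% of all genes. The number was 3 with median scaling and 4 with the values scaled by the authors. The share of all genes in that order was not computed under either of these scalings. In the unscaled signal the KO arrays lay below both WT arrays for 2 of the 9 probes, those of Irgm2 and Gbp3 (ILMN_2918002), against 0.424% of all tested probes. Scaling each array to its median gave a mean over the 5 genes of -0.78, where the median of all probes was itself shifted by 0.27, and turned Irgm1 probe ILMN_2804037 to 0.26. With the scaled values of the authors, which keep the background, the mean was -0.69. Irgm2 was then at -0.99, Gbp3 (ILMN_2918002) at -0.93, Igtp at -0.79 and Gbp2 (ILMN_3047389) at -0.45.

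Related GTPases were mostly not detected. Of 17 other genes of the IRG, GBP, Mx and very large inducible GTPase families on the array, 11 were detected on none of the 4 arrays, namely Tgtp1, Irgc1, Gm4951, Gbp2b, Gbp4, Gbp5, Gbp8, Gbp9, Gbp10, Gbp11 and Mx1. A further 4 were detected on 1 array only, and that array was WT2 each time. Ifi47 (Irgd), an effector IRG, had 111.8 and 98.0 in KO, against 84.5 and 100.6 in WT. Mx2, a dynamin-like antiviral GTPase, had 101.8 and 103.4 in KO, against 90.4 and 114.9 in WT. Gbp7, a GBP encoded next to Gbp3, had 106.6 and 101.7 in KO, against 86.1 and 101.8 in WT. These signals stand near each array's own background, which was higher in the KO arrays. The remaining gene of the 4, Gm4841, had 99.0 and 99.0 in KO, against 83.0 and 101.0 in WT. Counting Iigp1, 5 member or related probes were detected on exactly 1 array, all 5 on WT2, while WT2 held 24.2% of the 2054 probes of the whole array detected on exactly 1.

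Only Irgq and Gvin1 of the related genes were tested. Irgq, an IRG-like gene that is not known to depend on interferon, had signals in KO of 278.6 and 294.5, against 190.1 and 190.1 in WT on probe ILMN_1255832. Its normalized values were 7.40 and 7.51 in KO, against 7.14 and 7.10 in WT, a difference of 0.34 ± 0.17 (SE), so both KO arrays lay above both WT arrays, the opposite order from Irgm2. Gvin1, a very large interferon-inducible GTPase, had 388.0 and 387.4 in KO, against 252.7 and 333.1 in WT, and differed by 0.02 ± 0.22 (SE) after normalization, with overlap.

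The other genes of the pathway, none of which passed the adjusted test by limma, differed by group. Of 13 tested genes of interferon signalling 8 were lower and 5 higher in KO, with a median of -0.10, and at an unadjusted p of 0.05 3 were lower and 1 higher. The 3 brightest were Stat3 (-0.55 ± 0.28), Irf2 (-0.04 ± 0.18) and Irf3 (-0.19 ± 0.18; log2 differences ± SE). The receptor chains Ifngr1 (0.10 ± 0.19), Ifngr2 (0.10 ± 0.19) and Ifnar2 (0.10 ± 0.22) overlapped between genotypes. The ligands Ifng and Ifnb1, the receptor chain Ifnar1 and the kinase Jak1 were detected on no array. Stat2 and Irf9, partners in the complex on the ISRE, had the WT2-high order of the members. They were the only 2 of the 13 with WT2 as the highest array, and WT2 was the lowest array for 3. Stat2 was at 5.45 and 5.32 in KO, against 6.32 and 7.11 in WT (-1.33 ± 0.27), and Irf9 differed by -0.85 ± 0.28. Socs3, where both KO arrays also lay below both WT arrays, differed by -0.70 ± 0.18 and was highest in WT1. The receptor genes, Stat2 and Irf9 were picked out for their roles, and Socs3 for its values, all after the values had been seen.

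Interferon gamma targets outside the GTPases were mostly lower in KO. Of 14 tested, 12 were lower and 2 higher in KO, with a median of -0.21, 2 lower at an unadjusted p of 0.05, both KO arrays below both WT arrays for 7 and WT2 the highest array for 9. The 3 brightest were B2m, the light chain of MHC class I (-0.19 ± 0.19), Psme1, a proteasome activator subunit (-0.42 ± 0.21), and Irf1, a transcription factor (-0.27 ± 0.17). Ciita, Cd74, H2-Aa and Cxcl9 were detected on no array.

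Genes induced by type I interferon had the array order of the GTPases in their mean levels, WT2 highest, then WT1, KO1 and KO2. So did the interferon gamma targets, the signalling genes, and the proliferation and epithelial markers. For the epithelial markers WT1 and KO1 were nearly level (-0.03 for each). Of 18 type I interferon genes tested, 17 were lower and 1 higher in KO, with a median of -0.81 beside 0.01 over all genes. At an unadjusted p of 0.05, 10 were lower. WT2 was the highest array for 16 and KO2 the lowest for 17. Isg15, a ubiquitin-like modifier, had signals in KO of 413.7 and 222.8, against 427.2 and 2546.0 in WT, so WT2 stood far above the other 3 arrays. Ifi27 was at 10.57 and 10.21 in KO, against 11.16 and 11.68 in WT after normalization, and Ifitm3, which blocks virus entry, at 13.06 and 12.81 in KO, against 13.26 and 13.89 in WT. This list was chosen with its values on these arrays known and is no independent evidence of its direction.

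Autophagy conjugation factors, known to help load IRGs and GBPs onto vacuoles, and their adaptors went in both directions. Of 12 tested, 7 were higher and 5 lower in KO, with 2 higher and 0 lower at an unadjusted p of 0.05. Over all 11552 tested probes, 515 were higher and 405 lower at that p by limma. Both KO arrays lay above both WT arrays for 4 of the 12 and below both for 0. The share of all tested probes with both KO arrays above was not computed. The 3 brightest of the 12 were Gabarap (0.12 ± 0.22) and Gabarapl1 (0.15 ± 0.18), ubiquitin-like tags of membranes, and the adaptor Sqstm1 (0.47 ± 0.17).

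**Figure D4:**
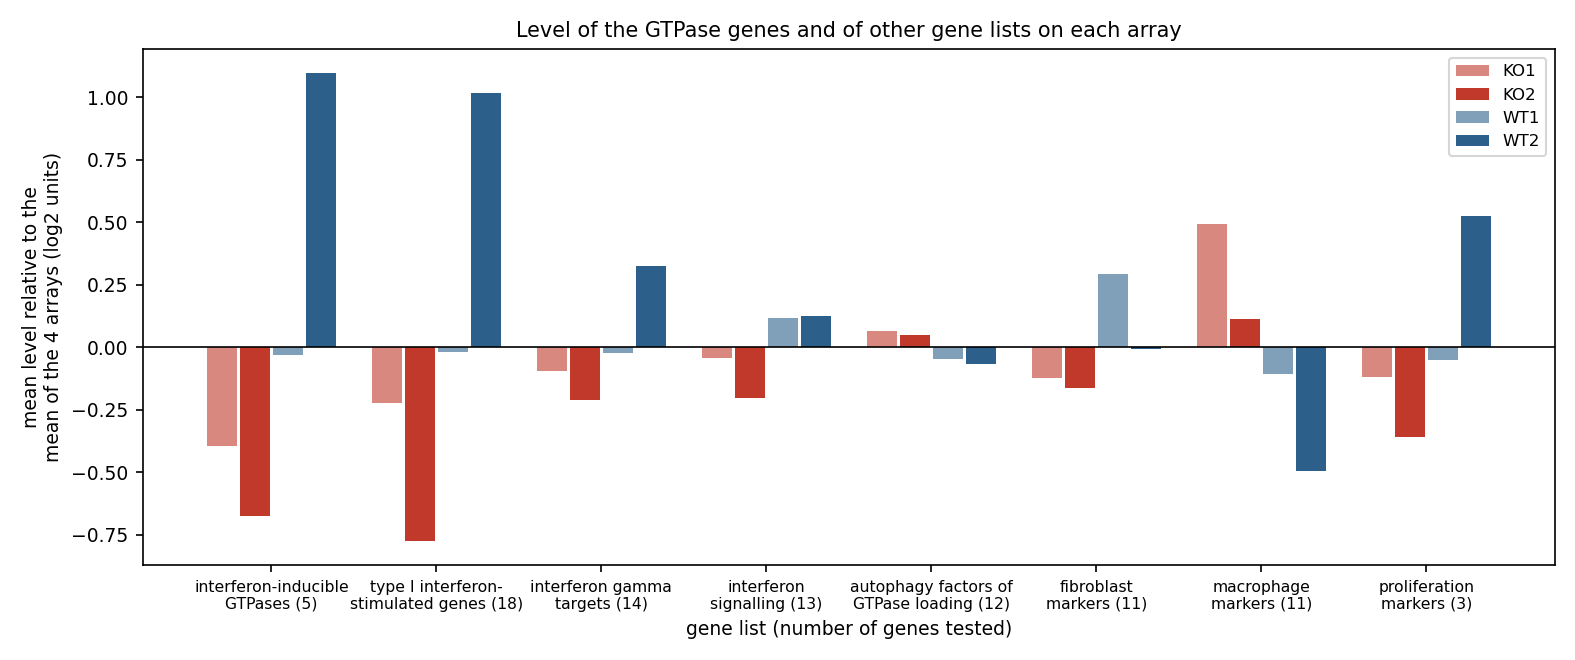
Mean level of each gene list on each array relative to its mean over the 4 arrays (log2 units), KO1 and KO2 left of WT1 and WT2, with the number of tested genes per list. The 5 tested GTPases (-0.39 and -0.67 in KO, -0.03 and 1.10 in WT) and the 18 type I interferon genes (-0.22 and -0.78 in KO, -0.02 and 1.02 in WT) have the same order of arrays, as do the interferon gamma targets and proliferation markers. For interferon signalling WT1 and WT2 are nearly level (0.12 and 0.13), and the macrophage markers are lowest in WT2.

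Markers of other cells that an embryo preparation can hold differed between the arrays. All 11 tested macrophage markers were higher in KO, 7 at an unadjusted p of 0.05, and WT2 was lowest for 10. Ptprc, which marks all leukocytes, was detected on no array. Over all 11552 tested probes, 515 were higher in KO at that p by limma, and the share with WT2 lowest was not computed. The summed signal of the macrophage markers over background was 48450.7 and 37794.1 in KO, against 24091.1 and 20011.8 in WT, on arrays where KO was brighter throughout. Their normalized levels relative to the 4 arrays were 0.49 and 0.11 in KO and -0.11 and -0.50 in WT. Lyz1, Lyz2 and Laptm5 had the highest signals of the list. The 3 tested proliferation markers, Top2a, Cdk1 and Aurka, were highest in WT2 and lowest in KO2, at -0.12 and -0.36 in KO, against -0.05 and 0.52 in WT relative to the 4 arrays. Of 11 fibroblast markers 10 were lower and 1 higher in KO, with a median of -0.28 and summed signals in KO of 35567.8 and 34999.7, against 28922.6 and 25294.7 in WT. All 7 T and NK cell markers and 5 of 6 endothelial markers, Cdh5 and Pecam1 among them, were detected on no array. Of 5 epithelial markers, Cdh1 and Cldn3 were detected on none, and the 3 keratins Krt8, Krt18 and Krt19 were tested, at mean levels of -0.03 and -0.33 in KO and -0.03 and 0.39 in WT relative to the 4 arrays. Krt19 was at 5.14 and 4.68 in KO and at 5.57 and 6.63 in WT, with both KO arrays below both WT arrays (-1.19 ± 0.35, SE). It was not detected in KO2. Krt18 went the other way, at 4.80 and 4.82 in KO and at 4.58 and 4.56 in WT (0.24 ± 0.17, SE). Both of its KO arrays lay above both WT arrays, and neither WT array detected it. Krt8 overlapped between genotypes (-0.14 ± 0.21, SE). Emcn was the endothelial marker tested, at 168.9 and 238.5 in KO, against 106.5 and 93.1 in WT. The part of these cells in the GTPase values was not tested.

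The genes most like the GTPases were sought among the 469 genes whose levels spanned at least 1 log2 unit, by Pearson's r over the 4 arrays with the mean profile of the 5 tested members, outside the GTPase families. With 4 arrays a high r is easily reached, and 19 genes had r above 0.99. The 8 nearest were Hoxd12 (0.9999), Adcy4 (0.9996), Ifi35 (0.9993), Ccl5 (0.9977), Ifit3 (0.9977), Ifitm3 (0.9964), Rsad2 (0.9955) and Oasl2 (0.9954). Ifi35, Ifit3, Ifitm3, Rsad2 and Oasl2 are interferon-stimulated genes, and Ccl5 is a chemokine. Hoxd12, a homeobox gene of limb patterning, was at 6.18 and 5.93 in KO, against 6.52 and 7.53 in WT, and Ifit3 at 7.74 and 7.47 in KO, against 8.49 and 10.61 in WT.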

How the data were processed

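RNA of 2 KO and 2 WT MEF lines was hybridised to Illumina MouseRef-8 arrays. The authors deposited the signal intensity of each probe, as summarised by GenomeStudio and not normalized, with a detection p-value. A second deposited table holds the same intensities after the authors multiplied each array by 1 factor (0.884 and 0.883 for KO, 1.159 and 1.145 for WT), and it served as an alternative. Probes were named through the platform annotation, which gave 23978 of 25697 probes 1 gene and 1719 none.

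Signals were corrected with neqc in limma 3.58.1 (R 4.3.3; normexp estimated from detection p-values, offset 16, quantile normalization, log2). Probes detected (p under 0.05) on at least 2 arrays were fitted by genotype over the 4 arrays, with Benjamini-Hochberg adjustment and a threshold of 0.05. The script was tested on simulated data. The MEF lines were separate, and n = 2 per genotype limits the precision.

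The members and all gene lists were chosen with earlier results of these data known. All member probes are named, with every related GTPase detected on at least 1 array, the up to 3 brightest genes of each other list, and the 8 genes most like the members. For lists, the tested probe with the highest mean level stood for its gene. Alternatives were the offset, background correction, scaling, detection filter, variance model, replicate block and each array left out. Line numbers 1 and 2 recur in both genotypes, but nothing states that they pair the lines.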

Additional observations from a re-analysis of the deposited data

How the results depend on the processing

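The count of probes past an adjusted p of 0.05 by limma was 1 (H3f3b; 920 at an unadjusted p of 0.05) and stayed 1 with an offset of 50, no background correction, median scaling, the values scaled by the authors and no detection filter. It was 25 with trended, robust variances, 0 with a stricter detection filter (8707 probes tested, 685 at an unadjusted p of 0.05), and 1 to 39 with each array left out, the 39 without WT1. Of the member probes, Irgm2 passed with trended, robust variances, 5 of 9 passed without WT1, and 0 passed in every other setting run. The stricter filter asked for a detection p under 0.01 on every array, which removed H3f3b, undetected in both KO arrays. Its count of 0 therefore cannot tell whether the call of H3f3b is stable. That filter tested only 6 of the 9 member probes. Gbp3 probe ILMN_2918002, with the largest difference, was not among them. The mean difference of the 5 genes, -1.07, kept its sign throughout and was -0.50 without WT2. The number of genes with both KO arrays below both WT arrays was 3 of the 5, beside 17.1% of all genes. With an array left out, fewer arrays had to be in order, so this number could only stay or rise. It was then 3 to 5, which cannot tell whether the order of the 3 genes rests on a single array. The share of all genes in that order was not computed with an array left out. With the line number as a replicate block, 3 probes passed, none of them a member. Deviations of same-numbered lines correlated at -0.036, so the numbers were not taken to pair them. The 6 values whose sign turned all belonged to 2 Irgm1 probes, ILMN_2711172 and ILMN_2804037. Signals near background limit Iigp1, Igtp, Gbp3 and the dimmer Gbp2 and Irgm1 probes.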
